A study of Arabidopsis thaliana with 9 samples.

Results

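The 10 photoreceptor genes of Arabidopsis thaliana were followed through 9 RNA libraries of whole seedlings, 3 each of the mutants csu5-1 and csu5-3 and of the wild type Col. They were taken by locus identifier from the 32678 genes listed for every library: 5 phytochrome genes (PHYA, PHYB, PHYC, PHYD and PHYE), 2 cryptochrome genes (CRY1 and CRY2), 2 phototropin genes (PHOT1 and PHOT2) and the ultraviolet-B receptor gene UVR8. All 10 were present and all 10 passed the filter on low values. The seedlings of all 3 genotypes were of the Col-0 ecotype, were 5 days old and had grown in continuous white light of 14.59 μmol per square metre and second. Both mutants are lines of a gene that the series title calls COP1 SUPPRESSOR 5, and COP1 is a ubiquitin ligase that holds back light-driven development. By the title, a missense mutation in this gene was studied, but the labels do not say which allele carries it, what the other lesion is or whether a cop1 allele is present. They also do not say whether the 3 libraries of a genotype came from separate sowings, so p-values measure the spread between these libraries.

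As background, each receptor family senses its own part of the spectrum. Phytochromes carry a bilin chromophore and switch between a red-absorbing and a far-red-absorbing form. In textbook accounts the phyA protein and the PHYA transcript are lost in light, whereas phyB to phyE are light-stable. Cryptochromes are blue-light receptors that bind a flavin and are related to DNA photolyases, phototropins are blue-light-activated kinases that steer phototropism, chloroplast movement and stomatal opening, and UVR8 senses ultraviolet-B through its own tryptophans. Signals from phytochromes, cryptochromes and UVR8 converge on COP1.

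The sequences before the annotated start sites of PHYA, PHYB and PHYD are shown because PHYA stood higher in csu5-1, PHYD stood lower, and PHYB is the gene both are set against below. Each line gives 250 bases of the RefSeq TAIR10.1 assembly on the strand of the gene, at chr1:3100820-3101069 (minus strand) for PHYA, chr2:8139506-8139755 (plus strand) for PHYB and chr4:9199841-9200090 (minus strand) for PHYD. Capitals mark, on either strand, the G-box CACGTG, the related CATGTG, the core ACGT that also lies inside the G-box, and CACGCGC, the site bound by FHY3 and FAR1.
PHYA: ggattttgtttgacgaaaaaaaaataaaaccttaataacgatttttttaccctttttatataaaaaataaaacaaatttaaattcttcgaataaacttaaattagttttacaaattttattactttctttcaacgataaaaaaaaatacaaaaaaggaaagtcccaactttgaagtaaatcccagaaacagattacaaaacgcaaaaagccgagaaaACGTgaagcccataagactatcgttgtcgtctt
PHYB: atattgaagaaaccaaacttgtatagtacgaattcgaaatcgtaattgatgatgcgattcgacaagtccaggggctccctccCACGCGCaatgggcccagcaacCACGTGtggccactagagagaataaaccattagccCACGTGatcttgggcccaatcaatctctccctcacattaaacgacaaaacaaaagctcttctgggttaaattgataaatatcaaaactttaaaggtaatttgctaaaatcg
PHYD: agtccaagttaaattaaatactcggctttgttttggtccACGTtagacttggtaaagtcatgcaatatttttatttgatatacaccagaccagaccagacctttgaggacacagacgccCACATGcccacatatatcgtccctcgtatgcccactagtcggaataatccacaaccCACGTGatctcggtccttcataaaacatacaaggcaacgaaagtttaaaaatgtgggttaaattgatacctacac
The PHYA window held 1 match, a lone ACGT at 33 bases before the start. The PHYB window held 2 G-boxes, at 146 and 111 bases before the start, and 1 CACGCGC. The PHYD window held 1 G-box at 75 bases, 1 CATGTG on the other strand at 131 bases and a lone ACGT at 211 bases, and it runs into the neighbouring gene AT4G16260. Of 27443 windows of the same length before protein-coding genes, 6.5% held a G-box, 11.1% CATGTG, 44.1% ACGT and 1.1% CACGCGC. None of the 10 photoreceptor windows held the evening element AAAATATCT on either strand, against 2.4% of all windows. These matches describe letters in a window and were not tested as sites.

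Values were read as FPKM, in which the count of a gene is divided by its exon length and by M counted reads. The exon lengths the authors used are not stated. Levels of different genes, and the orders, sums, shares and ratios below, therefore hold only as far as those lengths do. Folds of a gene between genotypes depend little on its length. PHOT2, for instance, has 7121 exon bases over 7 transcripts in TAIR10.1, and which of them were counted is not known. Steps between low values put the depth at 37.1 to 43.0 M counted reads per library, and the least abundant photoreceptor gene, PHYD, then rested on about 769 to 1280 reads per library. No window of 100 bases in the longest transcript of any of the 10 genes has an exact match at another place in the TAIR10.1 genome. Read length is not stated, and shorter or inexact matches were not searched. How fully reads of the 5 phytochrome genes were told apart was therefore not tested. PHYE shares 60 bases with AT4G18140 on the same strand, and a TAIR10.1 model of PHOT2 runs 2760 bases into AT5G58150 on the other strand, which was listed at 0 in all 9 libraries. Among 8 shoot markers 1 rose (LHCA1) and 1 fell (LHCB1.3) in csu5-1 against Col, and their summed level was 40680 to 41360 FPKM in csu5-1, 49600 to 55660 in csu5-3 and 52860 to 55940 in Col. Of 14 root markers 11 were tested, and 1 rose and 5 fell in csu5-1 against Col. Over all genes tested 8.31% rose and 7.86% fell in that comparison. The 5 root markers that fell thus lie well above the share of all genes. They were PRP3, PRP1, EXPA7, EXPA18 and LRX1, and PRP1 passed the filter on low values mainly through the csu5-3 and Col libraries. COBL9, RHD6 and RSL4 had negative folds and were not called. Other members of the list went the other way. SHR was called higher (log2 fold 0.62), and SCR (0.23) and PYK10 (0.29) had positive folds. The sum of the root markers was 2304 to 2345 FPKM in csu5-1, 2258 to 2349 in csu5-3 and 1906 to 2141 in Col. Without PYK10, left out after its values were seen because it supplies most of that sum, it was 65.2 to 67.7 FPKM in csu5-1, 81.2 to 90.1 in csu5-3 and 87.0 to 97.8 in Col. No marker of either list was at 0 in all libraries. The part of organ proportions in the results below was not tested, and in whole seedlings fewer cells of a type and less RNA per cell cannot be told apart.

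The photoreceptor transcripts spanned a 30.3-fold range of mean levels in csu5-1, 17.7-fold in csu5-3 and 17.6-fold in Col. PHOT1 was the most abundant and PHYD the least abundant in each genotype, with means of 154.7 and 5.1 FPKM in csu5-1, 127.7 and 7.2 FPKM in csu5-3 and 114.0 and 6.47 FPKM in Col. PHYA was second in csu5-1 at 129.0 FPKM, apart from CRY1 below it. It came after CRY1 in csu5-3 at 68.91 FPKM and in Col at 68.31 FPKM, and its libraries there overlapped those of CRY1. In Col the libraries of CRY1, PHYA and CRY2 overlapped from one neighbour to the next (68.77, 68.31 and 66.04 FPKM), as did PHYE and PHYC (11.66 and 11.06 FPKM). In csu5-3, PHYC and PHYE (12.45 and 12.35 FPKM) also overlapped. In csu5-1 no neighbours in the order overlapped. PHOT2 stood above UVR8 in csu5-1 (58.65 against 52.81 FPKM) and below it in csu5-3 (45.46 against 58.46 FPKM) and in Col (37.2 against 56.04 FPKM). Which of PHOT2 and UVR8 stands higher rests on the exon lengths used for them, which were not tested. Within a genotype, the coefficient of variation of a photoreceptor gene was 1.23% (UVR8 in csu5-1) to 9.78% (PHYB in csu5-1).

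**Figure D1:**
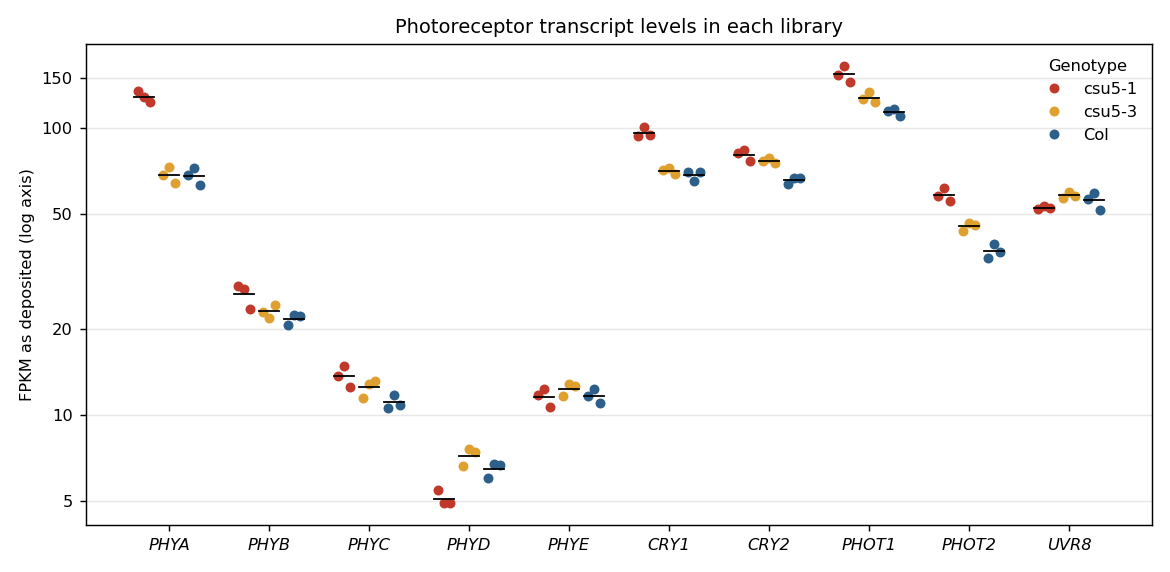
FPKM of the 10 photoreceptor genes in each of the 9 libraries, on a log axis, with a point per library and a bar at the mean of 3 libraries for csu5-1, csu5-3 and Col. The csu5-1 libraries of PHYA lie between 123.5 and 134.9 FPKM, above every csu5-3 and Col library, whereas those of PHYD lie below them.

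The comparison of csu5-1 with Col asked which receptor genes stand at another level when this allele is present. PHYA and PHOT2 rose, 2 of 10 photoreceptor genes called higher and none lower, beside 16.2% of the 19329 genes tested called in either direction, 8.31% higher and 7.86% lower. A gene was called at an adjusted p below 0.01 and a fold above 1.5, the thresholds in the series text. CRY1, PHOT1, CRY2, PHYC and PHYB passed the p threshold alone with folds of 1.28 to 1.48, so 7 of 10 had an adjusted p below 0.01 and a positive fold, beside 17.5% of all genes tested (18.5% lower, 36.0% in either direction). Those 7 also had every csu5-1 library above every Col library, beside 22.0% of all genes tested, and PHYD had every one below, beside 35.6%. Overlap of libraries, here and below, was judged on FPKM before scaling. Shares of all genes tested, here and below, were not matched to the 10 genes for level. The SE of the log2 fold was smaller for CRY1 (0.05) than for PHYD (0.10), which stood at a lower level. The median log2 fold of the 10 genes was 0.37, beside 0.00 for all genes tested, and single values lay between −0.24 and 0.99. Without scaling the median of all genes was −0.08, and the calls over all genes were 1313 higher and 1962 lower, beside 1606 higher and 1519 lower with scaling. PHYA and PHOT2 were called either way. The count of 7 at an adjusted p below 0.01 did depend on scaling. Without it PHYB (log2 fold 0.27) and PHYC (0.29) no longer passed that threshold, whereas CRY1, PHOT1 and CRY2 still did. PHYB and PHYC also missed it in some of the fits that left out a csu5-1 or Col library.

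PHYA (AT1G09570), which encodes the receptor for far-red light and for very weak light, was the phytochrome gene that rose. It stood at 134.94, 128.58 and 123.47 FPKM in the csu5-1 libraries, against 68.86, 72.55 and 63.51 FPKM in the Col libraries. All 3 csu5-1 libraries were higher than every Col library and the groups lay far apart. The log2 fold was 0.99 ± 0.06 (SE; limma, adjusted p = 9.8e-08), a 1.99-fold difference that ranked 670th from the top among 19329 genes. In level, PHYA was above 96.0% of tested genes in csu5-1 and above 90.7% in Col.

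The light-stable phytochrome genes were not called. PHYB (AT2G18790), which encodes the main receptor for red light, stood at 28.12, 27.43 and 23.36 FPKM in csu5-1, against 20.51, 22.29 and 22.10 FPKM in Col. The groups did not overlap, although csu5-1 replicate 3 came within about 1 FPKM of Col, and the log2 fold was 0.35 ± 0.08 (adjusted p = 0.0022). PHYC (AT5G35840), whose protein works together with phyB, stood at 13.67, 14.81 and 12.51 FPKM in csu5-1, against 10.58, 11.75 and 10.86 FPKM in Col, again without overlap (0.37 ± 0.08, adjusted p = 0.0030). PHYD (AT4G16250), the closest relative of PHYB, stood at 5.45, 4.93 and 4.92 FPKM in csu5-1, against 6.02, 6.73 and 6.66 FPKM in Col. It was the photoreceptor gene whose csu5-1 libraries all lay below Col, but its log2 fold of −0.24 ± 0.10 did not pass the test (adjusted p = 0.053). PHYE (AT4G18130), another relative of PHYB, stood at 11.69, 12.29 and 10.61 FPKM in csu5-1, against 11.65, 12.33 and 10.99 FPKM in Col, and the groups overlapped (0.06 ± 0.08, adjusted p = 0.56). Without scaling the PHYE fold was −0.02.

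The make-up of the phytochrome family is given as values, without a test. PHYA made up 69.60%, 68.38% and 70.61% of the summed phytochrome FPKM in csu5-1, 56.75%, 57.15% and 52.95% in csu5-3, and 58.54%, 57.74% and 55.65% in Col. The csu5-1 libraries lay above all others, and csu5-3 and Col overlapped. The summed phytochrome level was 185.6 FPKM in csu5-1 and 119.1 FPKM in Col, a difference of 66.5 FPKM, of which PHYA supplied 60.7 FPKM. The sum of PHYB to PHYE was 51.4 to 59.5 FPKM in csu5-1 and overlapped with 48.8 to 53.1 FPKM in Col. The ratio of PHYA to PHYB was 4.92 ± 0.32 in csu5-1, 3.02 ± 0.35 in csu5-3 and 3.16 ± 0.26 in Col (SD, n = 3 libraries). PHYD made up 0.195 ± 0.016 of the PHYB level in csu5-1, 0.315 ± 0.029 in csu5-3 and 0.299 ± 0.005 in Col, with csu5-1 apart from the others. Such ratios are taken within a library and do not change when libraries are rescaled.

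CRY1 (AT4G08920), which encodes the cryptochrome of bright blue light, stood at 93.91, 100.72 and 94.43 FPKM in csu5-1, against 70.55, 65.29 and 70.48 FPKM in Col. The groups were far apart, and the log2 fold of 0.56 ± 0.05 (adjusted p = 1.7e-06) lay just under the fold threshold of 0.585 on the log2 scale. Under quantile normalization CRY1 was called, with a log2 fold of 0.60. CRY2 (AT1G04400), whose protein is degraded in blue light and promotes flowering, stood at 81.88, 83.82 and 76.87 FPKM in csu5-1, against 64.10, 67.19 and 66.82 FPKM in Col. Its groups did not overlap either (0.37 ± 0.05, adjusted p = 5.1e-05), and the ratio of CRY2 to CRY1 was 0.839 ± 0.030 in csu5-1 and 0.962 ± 0.061 in Col (SD, n = 3 libraries).

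PHOT2 (AT5G58140), which encodes the phototropin of strong blue light and of chloroplast avoidance, rose. It stood at 58.21, 62.02 and 55.71 FPKM in csu5-1, against 35.35, 39.28 and 36.98 FPKM in Col. All csu5-1 libraries were higher than all Col libraries, and the log2 fold was 0.73 ± 0.06 (adjusted p = 6.5e-07). PHOT1 (AT3G45780), which encodes the main receptor for phototropism in weak blue light, stood at 153.48, 165.03 and 145.49 FPKM in csu5-1, against 115.17, 116.42 and 110.48 FPKM in Col. Its groups did not overlap, and its log2 fold of 0.52 ± 0.05 (adjusted p = 6.2e-06) stayed under the fold threshold. The ratio of PHOT2 to PHOT1 was 0.379 ± 0.004 in csu5-1, 0.356 ± 0.013 in csu5-3 and 0.326 ± 0.017 in Col (SD, n = 3 libraries), and no genotypes overlapped in it.

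In the main fit UVR8 (AT5G63860) was the member nearest to no change. It stood at 52.25, 53.52 and 52.67 FPKM in csu5-1, against 56.75, 59.39 and 51.99 FPKM in Col. The groups overlapped, and the log2 fold was 0.00 ± 0.05 (adjusted p = 0.96), with a 95% interval of −0.12 to 0.11. Over the other settings the UVR8 fold went as low as −0.083, whereas PHYE was at −0.016 without scaling. Because the other families stood higher, UVR8 made up 8.41% ± 0.32 of the summed level of the 10 genes in csu5-1 and 12.14% ± 0.54 in Col (SD, n = 3 libraries).

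**Figure D2:**
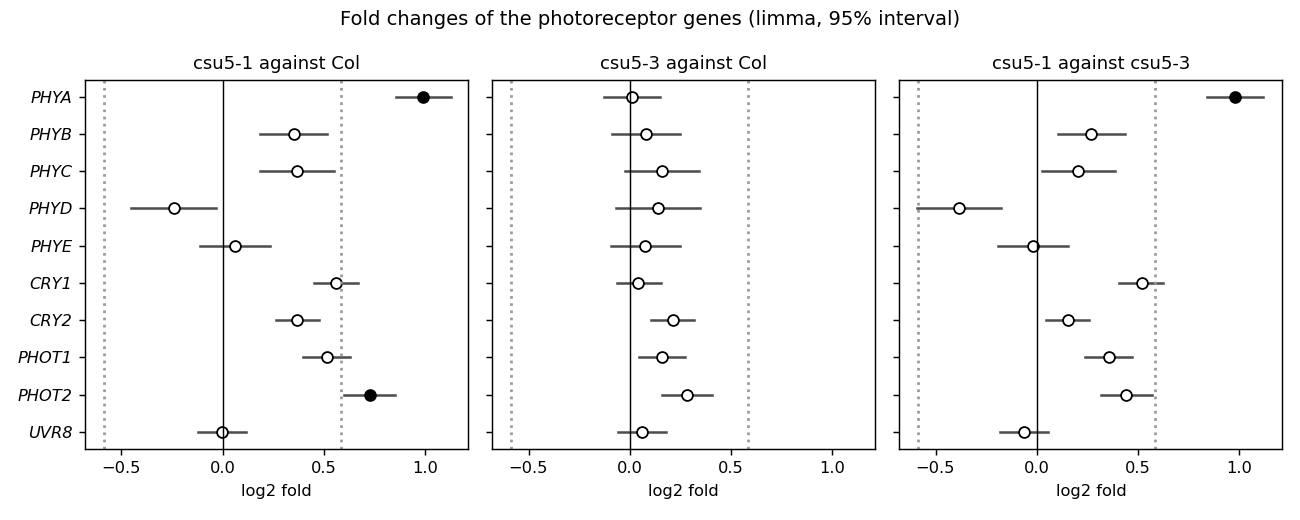
Log2 fold of each photoreceptor gene in the 3 comparisons, from limma on log2(FPKM + 0.5), with 95% intervals. Filled points were called, and dotted lines mark a fold of 1.5 in either direction. PHYA and PHOT2 are filled in csu5-1 against Col, no gene in csu5-3 against Col, and PHYA in csu5-1 against csu5-3.

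**Figure D3:**
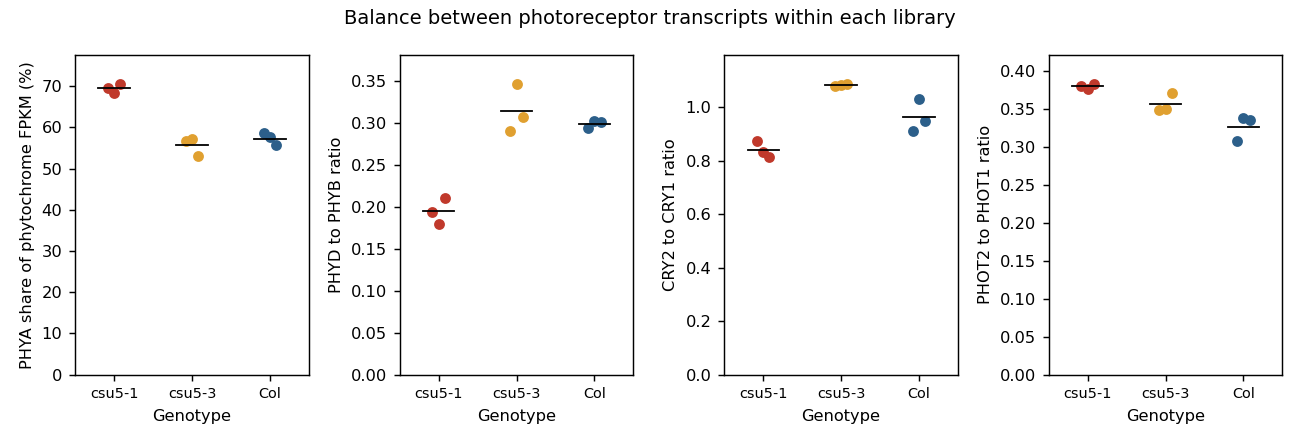
Share of PHYA in the summed phytochrome FPKM and the ratios PHYD to PHYB, CRY2 to CRY1 and PHOT2 to PHOT1, with a point per library and a bar at the mean of 3 libraries for csu5-1, csu5-3 and Col. The csu5-1 libraries lie apart from both other genotypes in all 4 panels, highest in PHYA share and in PHOT2 to PHOT1 and lowest in PHYD to PHYB and in CRY2 to CRY1.

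For csu5-3 the same question was put against the same Col libraries. None of the 10 photoreceptor genes was called by limma, beside 0.248% of all genes tested (0.119% higher, 0.129% lower), and none had an adjusted p below 0.01 at any fold, beside 0.595% (0.243% higher, 0.352% lower). At an unadjusted p below 0.05 there were 3 (CRY2, PHOT1 and PHOT2), beside 22.0% of all genes tested. The 10 log2 folds lay between 0.01 and 0.28, with a median of 0.11 beside 0.00 for all genes tested.

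PHOT2 stood at 43.95, 46.64 and 45.78 FPKM in csu5-3, above each of the Col libraries given above, with a log2 fold of 0.28 ± 0.06 (adjusted p = 0.019). CRY2 stood at 76.69, 78.43 and 75.31 FPKM in csu5-3, also above all Col libraries (0.21 ± 0.05, adjusted p = 0.028). PHOT1 stood at 126.19, 133.53 and 123.34 FPKM in csu5-3, likewise without overlap with Col (0.16 ± 0.05, adjusted p = 0.10). These 3 of 10 genes with all libraries above Col stand beside 14.0% of all genes tested, and no member had all libraries below, beside 13.2%. PHYA stood at 68.92, 73.38 and 64.42 FPKM in csu5-3 and overlapped with Col, with a log2 fold of 0.01 ± 0.06 (adjusted p = 0.95) and a 95% interval of −0.13 to 0.15. A PHYA difference of the size seen in csu5-1 lies outside that interval.

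CRY1 stood at 71.20, 72.51 and 69.28 FPKM in csu5-3 and overlapped with Col (0.04 ± 0.05, adjusted p = 0.65). The ratio of CRY2 to CRY1 was 1.077, 1.082 and 1.087 in the csu5-3 libraries, against 0.909, 1.029 and 0.948 in the Col libraries. The csu5-3 libraries thus lay above Col in this ratio, on the other side from csu5-1. The remaining genes PHYB (22.82, 21.84 and 24.14 FPKM), PHYC (11.43, 12.79 and 13.14 FPKM), PHYD (6.63, 7.57 and 7.40 FPKM), PHYE (11.65, 12.83 and 12.57 FPKM) and UVR8 (57.16, 60.06 and 58.15 FPKM) in csu5-3 all overlapped with Col, with log2 folds of 0.06 to 0.16.

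The alleles were also set against each other. PHYA was the photoreceptor gene called in csu5-1 against csu5-3, 1 of 10 beside 14.7% of all genes tested (8.12% higher, 6.59% lower), with a log2 fold of 0.98 ± 0.06 (adjusted p = 1.2e-07). Every csu5-1 library exceeded every csu5-3 library. Over all genes 1569 were called higher and 1273 lower, against 1300 higher and 1689 lower without scaling. CRY1 (0.52 ± 0.05), PHOT2 (0.44 ± 0.06), PHOT1 (0.36 ± 0.05) and PHYD (−0.38 ± 0.10) passed the p threshold at a fold below 1.5, so that 5 of 10 had an adjusted p below 0.01 beside 32.5% of all genes tested. Of these, 4 were higher, beside 16.1% of all genes, and 1 was lower, beside 16.4%. Adjusted p was 3.9e-06 for CRY1, 4.8e-05 for PHOT2, 0.00015 for PHOT1 and 0.0059 for PHYD. PHYD stood at 5.45, 4.93 and 4.92 FPKM in csu5-1, against 6.63, 7.57 and 7.40 FPKM in csu5-3, and these groups did not overlap. PHYD and UVR8 had every csu5-1 library below every csu5-3 library, beside 35.5% of all genes tested, and PHYA, CRY1, PHOT1 and PHOT2 had every one above, beside 20.7%. These counts use FPKM before scaling, in which the median log2 fold of all genes was −0.08, and scaling could change them. PHYB (0.27 ± 0.08, adjusted p = 0.012) and CRY2 (0.15 ± 0.05, adjusted p = 0.021) did not pass, nor did PHYC, PHYE and UVR8.

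Genes of chromophore synthesis, partners and downstream factors of each receptor type, and other flavin-binding photoproteins were listed together as partner genes. The flavin photoproteins are counted among them although they were not listed as partners of a receptor. Of 68 listed partner genes 64 were tested; HO3, HO4, AT4G34550 and CIB1 did not pass the filter on low values, and AT4G34550 and CIB1 were listed at 0 in all libraries. CIB1 lies inside the TAIR10.1 span of AT4G34540 on the same strand, and 23 of the 68 genes overlap another gene, so their values are uncertain. In csu5-1 against Col 12 of the 64 rose and 6 fell, beside 8.31% higher and 7.86% lower over all genes tested, with a median log2 fold of 0.03. The share that fell was near that of all genes, and 2 of the 6 that fell were other flavin photoproteins. In csu5-3 against Col none was called by limma, beside 0.248% of all genes tested, and 24 (37.5%) had an unadjusted p below 0.05, beside 22% of all genes tested. In csu5-1 against csu5-3, 14 of the 64 were higher and 4 lower, beside 8.12% higher and 6.59% lower over all genes, and the share that was lower was again near the background.

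**Figure D4:**
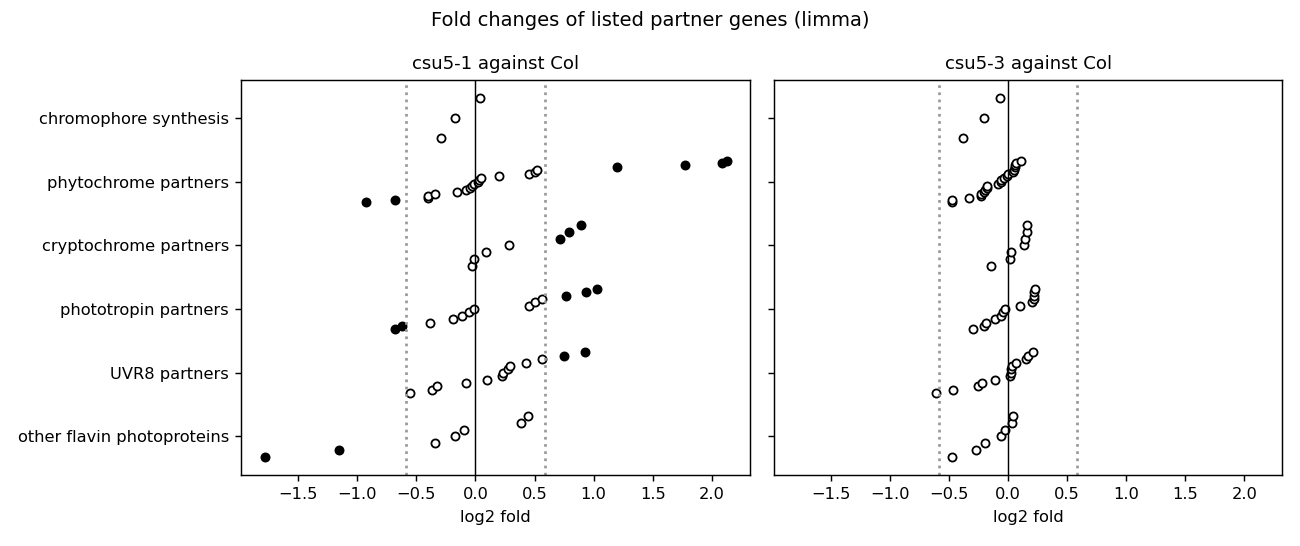
Log2 folds of the 64 tested partner genes in csu5-1 against Col and in csu5-3 against Col, by list, from limma on log2(FPKM + 0.5). Filled points were called and dotted lines mark a fold of 1.5. In csu5-1 the called genes spread to both sides, from −1.79 (UVR3) to 2.13 (PKS4), and in csu5-3 no point is filled.

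Genes for the bilin chromophore of phytochromes were not called in csu5-1 (0 of 3 tested, beside 16.2% of all genes tested; 1 had an unadjusted p below 0.05, beside 55.9% of all genes tested). HY1, the main heme oxygenase of the pathway, averaged 83.15 ± 3.12 FPKM in csu5-1, 81.88 ± 5.03 in csu5-3 and 85.58 ± 3.88 in Col (SD, n = 3 each). HO2, a second heme oxygenase gene, averaged 17.4 ± 0.817 FPKM in csu5-1, 17.27 ± 1.38 in csu5-3 and 22.58 ± 0.991 in Col, with log2 folds against Col of −0.29 ± 0.07 (adjusted p = 0.0061) and −0.38 ± 0.07 (adjusted p = 0.016). HY2, which makes the final bilin, had log2 folds of −0.18 ± 0.10 in csu5-1 and −0.20 ± 0.10 in csu5-3.

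Of 21 tested phytochrome partners 4 rose and 2 fell in csu5-1 against Col, beside 8.31% and 7.86% of all genes tested. PIF4 and PIF5, transcription factors that active phytochrome removes, averaged 56.02 ± 4.25 and 59.62 ± 1.95 FPKM in csu5-1, 16.51 ± 3.7 and 12.29 ± 1.12 in csu5-3, and 16.92 ± 1.35 and 14.49 ± 1.15 in Col. PKS4, a phytochrome kinase substrate that acts in phototropism, rose to 19.51 ± 0.483 FPKM in csu5-1, against 4.353 ± 0.623 in Col (log2 fold 2.13 ± 0.12, adjusted p = 2.6e-08). HMR, which is needed for phytochrome signalling in the nucleus and for plastid transcription, fell to 19.2 ± 1.19 FPKM in csu5-1, against 38.95 ± 1.15 in Col (−0.92 ± 0.07, adjusted p = 2.6e-07). The other called genes, FHL (1.20 ± 0.19), which helps phyA enter the nucleus, and PKS1 (−0.68 ± 0.09), are named after their values were seen. FHY1, the main carrier of phyA into the nucleus, had a log2 fold of −0.04 ± 0.12 in csu5-1 and −0.48 ± 0.12 in csu5-3 (adjusted p = 0.043). In csu5-1 against csu5-3, PIF1, a relative of PIF4 that delays germination, was also called higher (0.71 ± 0.07).

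Of 7 tested cryptochrome partners 3 were called higher in csu5-1 against Col, beside 8.31% of all genes tested, and none of these carries a gene name in the annotation used. One of them, AT3G44450, passed the filter on low values through the csu5-1 libraries, where it is high, so its call and its place in this count and in the counts over all partners are not independent of that filter. The kinase gene AT5G18190 averaged 41.32 ± 1.18 FPKM in csu5-1, 29.55 ± 0.95 in csu5-3 and 26.33 ± 0.592 in Col (log2 fold in csu5-1 against Col 0.72 ± 0.05, adjusted p = 3.9e-07). AT3G52740 averaged 8.487 ± 1.06 FPKM in csu5-1, 5.043 ± 1.01 in csu5-3 and 5.0 ± 1.08 in Col (0.80 ± 0.17, adjusted p = 0.0017). AT3G44450 was at 2.64, 1.93 and 1.55 FPKM in csu5-1, against 0.95, 0.98 and 0.78 FPKM in Col (0.90 ± 0.22, adjusted p = 0.0047). Besides the csu5-1 libraries 1 csu5-3 library reached 1 FPKM, and the gene was not called without Col replicate 1, 2 or 3 or without csu5-1 replicate 1 or 2 (adjusted p = 0.011 to 0.028). In csu5-1 against csu5-3, AT3G44450 lost its call when csu5-1 replicate 1 was left out (adjusted p = 0.013), and AT3G52740 lost it without csu5-1 replicate 3 (adjusted p = 0.012) or csu5-3 replicate 2 (adjusted p = 0.010).

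Of 13 phototropin partners 3 rose and 2 fell in csu5-1 against Col, beside 8.31% and 7.86% of all genes tested. NPH3, the adaptor through which phot1 drives phototropism, averaged 28.58 ± 1.6 FPKM in csu5-1, 20.52 ± 0.641 in csu5-3 and 17.52 ± 0.49 in Col (log2 fold in csu5-1 against Col 0.77 ± 0.06). ABCB19, an auxin exporter phosphorylated by phot1, averaged 99.58 ± 5.37 FPKM in csu5-1, 63.75 ± 2.03 in csu5-3 and 54.7 ± 2.46 in Col (0.94 ± 0.05). JAC1, needed for chloroplasts to gather in weak light, averaged 23.3 ± 0.488 FPKM in csu5-1, against 11.78 ± 0.491 in Col (1.03 ± 0.07). CHUP1, which ties chloroplasts to actin, fell to 55.58 ± 4.69 FPKM in csu5-1, against 90.19 ± 0.999 in Col (−0.62 ± 0.06). Without csu5-1 replicate 3, CHUP1 was not called in csu5-1 against Col (−0.55) or against csu5-3 (−0.53), and without csu5-3 replicate 1 it was not called against csu5-3 (−0.56). BLUS1, a kinase of blue-light stomatal opening, also fell (−0.68 ± 0.09), named after its values were seen. In csu5-1 against csu5-3, AT3G01490, a kinase gene with no name in the annotation, was also called higher (0.61 ± 0.05).

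Of 13 UVR8 partners 2 rose and none fell in csu5-1 against Col, a share near the 16.2% of all genes tested that were called in either direction. RUP2, which returns UVR8 to its inactive form, averaged 13.2 ± 1.11 FPKM in csu5-1, 7.297 ± 0.352 in csu5-3 and 7.09 ± 0.349 in Col (log2 fold in csu5-1 against Col 0.93 ± 0.09, adjusted p = 3.1e-06). HYH, a close relative of the light regulator HY5, averaged 49.27 ± 4.07 FPKM in csu5-1, 20.06 ± 3.02 in csu5-3 and 30.77 ± 3.48 in Col. Its log2 fold was 0.75 ± 0.11 in csu5-1 against Col and −0.61 ± 0.11 in csu5-3 against Col (adjusted p = 0.012, not called). RUP1, which acts with RUP2, was called higher in csu5-1 against csu5-3 (0.75 ± 0.09). HYH in csu5-3 was called without csu5-3 replicate 1 (−0.73, adjusted p = 0.0059) and at a filter of 5 FPKM (adjusted p = 0.0086). COP1 was at 20.72 ± 0.442 FPKM in csu5-1, 20.92 ± 1.39 in csu5-3 and 20.42 ± 0.172 in Col and was not called in either. HY5 averaged 14.05 ± 0.232 FPKM in csu5-1, 18.54 ± 1.26 in csu5-3 and 22.24 ± 3.29 in Col, with a log2 fold in csu5-1 against Col of −0.56 ± 0.09 under the fold threshold.

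For the 2 photoreceptor genes called, the tested genes with the most similar profile were found by the root mean square difference between centred log2 profiles over the 9 libraries. Nearest to PHYA were AAE14 (AT1G30520; difference 0.05, Pearson r = 0.99), EXP3 (AT2G37640; 0.06, r = 0.99) and F8H (AT5G22940; 0.06, r = 0.99). AAE14 averaged 23.7 FPKM in csu5-1, 12.7 in csu5-3 and 12.6 in Col. Nearest to PHOT2 were ATBETAFRUCT4 (AT1G12240), APL4 (AT2G21590) and AT5G03140, each at 0.05 with r = 0.99. ATBETAFRUCT4 averaged 64.4 FPKM in csu5-1, 49.8 in csu5-3 and 43.4 in Col. That it shares the order of genotypes with PHOT2 follows from the choice by similar profile. These correlations share 9 libraries in 3 groups, chiefly reflect the step between genotypes and carry no p.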

How the data were processed

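Polyadenylated RNA of whole seedlings was sequenced in 9 libraries. Trimmomatic trimmed the reads, HISAT2 2.05 aligned them to TAIR10 and HTSeq counted them by gene, per the submitters' processing notes. The deposited values have neither header nor stated unit and were read as FPKM from their own pattern. The step by which the authors turned counts into FPKM (or RPKM, which looks the same) is not stated. Depth was estimated from low values of short genes, of which 78.1% to 84.9% lay no more than 0.1 read off a whole read (10.9% to 12.8% if another depth was assumed).

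Libraries were scaled by a mean log ratio trimmed by 0.3 at each end (factors 0.9598 to 1.026). limma 3.58.1 in R 4.3.3, with a mean-variance trend, was fitted to log2(FPKM + 0.5) of the 19329 genes that reached 1 FPKM in 3 or more libraries, with a mean per genotype, and p-values were Benjamini-Hochberg adjusted over all of them. The fit was tested on simulated data in which few genes changed, balanced between higher and lower. That test therefore does not bear on how scaling acts in these data. Fold changes on this scale understate those of low genes. Whether counting used strand is not stated. Summaries and plots used pandas 2.3.3, numpy 2.4.6 and matplotlib 3.10.9 under Python 3.11.15.

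The members and lists were chosen with earlier results of these data known. All 10 members are named. Named partners are, per list and comparison, the 4 called genes of lowest p, or the 2 of lowest p in a list without calls; each called member has its 3 most similar genes named, and COP1, HY5, PIF4 and PIF5 could always be named. Gene names are from RefSeq TAIR10.1, which matched 31912 of 32678 identifiers. Alternatives were other pseudocounts, filters and scalings, no trend, a replicate block, fits to 6 libraries and leaving out each library.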

Additional observations from a re-analysis of the deposited data

Results flagged for a closer look

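Among 44 quantities examined (36 photoreceptor and named partner genes and 8 shares and ratios), 7 had all csu5-1 libraries on one side of Col and all csu5-3 libraries on the other; both mutants are set against the same Col libraries. The genes among them were 5 of 36, all partners named for small p-values, and the same pattern was seen in 4.73% of all genes tested, in 6 of the 64 tested partners and in 0 of the 10 photoreceptor genes. None of the 5 was called in csu5-3 against Col. The ratio of CRY2 to CRY1 averaged 0.839 in csu5-1, 1.08 in csu5-3 and 0.962 in Col, and the difference between the alleles in this ratio was not tested. Phytochromes made up 29.5% of the summed level of the 10 photoreceptor genes in csu5-1, 24.6% in csu5-3 and 25.8% in Col, which was likewise not tested. HYH averaged 49.3 FPKM in csu5-1, 20.1 in csu5-3 and 30.8 in Col. RUP1, a relative of RUP2, averaged 7.84 FPKM in csu5-1, 4.73 in csu5-3 and 6.71 in Col. JAC1 averaged 23.3 FPKM in csu5-1, 10.9 in csu5-3 and 11.8 in Col, and PIF1 31.1 FPKM in csu5-1, 19.9 in csu5-3 and 22.8 in Col. These 4 genes were called in csu5-1 against csu5-3 by limma, with log2 folds of 1.36 (HYH), 0.75 (RUP1), 1.14 (JAC1) and 0.71 (PIF1). Calls in that comparison were part of the naming rule and so add no support to the pattern. In csu5-3 against Col the log2 folds were −0.61 for HYH (adjusted p = 0.012) and −0.46 for RUP1 (0.02). They were −0.11 for JAC1 (adjusted p = 0.38) and −0.19 for PIF1 (0.11). PMI1 averaged 42.5 FPKM in csu5-1, 60.4 in csu5-3 and 51.4 in Col, and its log2 fold between the alleles was −0.42, under the fold threshold.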

How the results depend on the processing

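The count of photoreceptor genes called was 2 to 3 in csu5-1 against Col, 0 in csu5-3 against Col and 1 in csu5-1 against csu5-3 over 18 alternatives. Of 68 partner genes, the count was 16 to 19 in csu5-1 against Col and 16 to 19 in csu5-1 against csu5-3. In csu5-3 against Col it was 0, but 1 (HYH) at a filter of 5 FPKM and 1 with the replicate block (HYH again, adjusted p = 0.00048), and 0 to 1 when a library was left out. Folds near 0 changed sign: PHYE in csu5-1 against Col was −0.016 without scaling, and UVR8 there was 0.001 at a pseudocount of 0.1, 0.003 at a filter of 5 FPKM, 0.009 under quantile normalization and −0.055 to 0.04 when a library was left out. Over the settings other than leaving out a library, UVR8 in csu5-1 against Col went as low as −0.083. With a library left out, PHYA in csu5-3 against Col was −0.039 to 0.06 and PHYE in csu5-1 against csu5-3 was −0.057 to 0.039. The cause was not tested. AT3G52740 lost its call between the alleles with no filter (adjusted p = 0.010), and AT3G01490 without scaling (log2 fold 0.53) or csu5-3 replicate 3 (0.58). Same-numbered libraries correlated by 0.02 to 0.15 in their deviations, all positive and under 0.1 in 7 of 9 pairs. Libraries of different numbers correlated by −0.136 to 0.031, mostly negative, although not every library correlated best with its own number. Deviations were taken from the mean of each genotype, so positive values for same numbers push the others down. The negative values therefore add no support of their own. By the same-numbered values the numbers may stand for pairs, but the labels do not say so, and the main fit did not pair them. The block moved no other count of calls. Members rested on at least about 769 reads per library, a counting error of about 3.61%, which is below the spread between libraries of PHYD (5.94% to 6.96%).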

Other observations

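Other proteins that bind a flavin and respond to light were listed beside the photoreceptors. Of 7 tested, none rose and 2 fell in csu5-1 against Col, beside 8.31% higher and 7.86% lower over all genes tested. UVR3, the photolyase that repairs 6-4 photoproducts in DNA, was at 5.18, 3.93 and 3.75 FPKM in csu5-1, 12.06, 12.57 and 11.08 FPKM in csu5-3, and 16.97, 16.35 and 16.83 FPKM in Col. The 3 genotypes did not overlap, and the log2 fold was −1.79 ± 0.11 in csu5-1 against Col (limma, adjusted p = 5.9e-08) and −0.48 ± 0.11 in csu5-3 against Col (adjusted p = 0.028, not called). FKF1, a blue-light receptor that times flowering, averaged 2.423 ± 0.559 FPKM in csu5-1, 5.397 ± 0.6 in csu5-3 and 6.33 ± 1.38 in Col (csu5-1 against Col −1.15 ± 0.17, adjusted p = 0.00015). PLP, annotated as a PAS/LOV protein, averaged 29.38 ± 0.686 FPKM in csu5-1, 32.81 ± 2.43 in csu5-3 and 39.8 ± 5.64 in Col and was not called in either mutant.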
